A study of Mus musculus with 6 samples.

Results

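The genes described here encode the enzymes and regulators of hepatic de novo lipogenesis, and they were followed in the livers of HFD-fed mice that received vehicle or esculetin. The set holds 10 genes, Srebf1, Acly, Acaca, Acacb, Fasn, Me1, Elovl6, Scd1, Pnpla3 and Thrsp, which were found by gene symbol among 55357 genes of a count table from liver RNA sequencing. All 10 were among the 14433 genes with enough counts to be tested. The mice were wild-type male C57BL6/J animals aged 8 to 9 weeks, and all were gavaged daily for 7 days. All mice ate a control diet with 10% of kcal from fat for 4 days and then an HFD with 60% of kcal from fat for 3 days, so the comparison is between treatments on the same short HFD and holds no group kept on the control diet. The vehicle group received 2.5% Tween-80, and the other group received esculetin, a coumarin compound, in the same vehicle. The annotations of the esculetin libraries name a dose of 180 mg/kg/d in their titles, and the column headings of the count table also carry 180. The treatment field names 90 mg/kg/d, so the group is named here without a dose. There were 3 libraries per group, each from the pooled livers of 2 mice, and p-values measure the spread between such pools.

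De novo lipogenesis turns carbohydrate into fatty acids in the cytosol of the hepatocyte. Citrate exported from mitochondria is split to acetyl-CoA, which is carboxylated to malonyl-CoA, joined into palmitate with NADPH as the reductant, and then elongated and desaturated before it is stored as triglyceride. In liver the genes of the route are driven mainly by SREBP-1c and ChREBP, which respond to insulin and to glucose metabolites, and they are well known for falling on fasting and rising on refeeding with carbohydrate.

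Short stretches of the promoters are shown for Fasn, Acaca and Scd1, because these genes carry the textbook motifs through which lipogenic genes are regulated. The sequences were read from the GRCm39 reference, in the 250 bases before the start of each gene's canonical transcript in the GENCODE annotation, and each is given 5′ to 3′ along the gene's strand with the motif in capitals. In Fasn and Acaca the capitals mark a match to TCACNCCAC, a sterol response element bound by SREBP proteins. In Scd1 they mark CCAAT, which is bound by NF-Y, a partner of SREBP proteins.
Fasn, chr11:120715062-120715091, minus strand: cgcgcgggcaTCACCCCACcggcggcggcg
Acaca, chr11:84063840-84063869, plus strand: acaggcacacTCACACCACaccctgggtgc
Scd1, first match, chr19:44396388-44396417, minus strand: ttgcgcctagCCAATggaaaaggcaggaca
Scd1, second match, chr19:44396345-44396374, minus strand: ttctctttggCCAATgacaagacgggcttc
The Fasn match lies 146 to 138 bases before the start, and the Acaca match 98 to 90 bases before it. Searched on both strands, TCACNCCAC occurred in the windows of 2 of the 10 genes, Fasn and Acaca, and in 1.12% of 21770 windows of protein-coding genes. CCAAT occurred in 3 of the 10, Fasn, Scd1 and Pnpla3, and in 36.5% of all windows. The E-box CACGTG, which USF proteins bind, was found in 1 of the 10 windows, that of Acaca, and in 6.26% of all. The GC box GGGCGG was found in 4 of the 10, Srebf1, Fasn, Acly and Pnpla3, and in 36.3% of all. The windows of Acaca and Scd1 lie within an intron of a longer transcript, and that of Fasn overlaps an annotated exon of another transcript. These matches describe the sequence only.

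None of the lipogenic genes passed the thresholds of the study, a fold change over 1.5 with an unadjusted p-value under 0.05, in either direction. The count was 0 of 10, where 3.13% of all genes tested passed, 1.37% as higher and 1.76% as lower with esculetin (edgeR's quasi-likelihood test). An unadjusted p-value under 0.05 was reached by 0 of 10, against 11.9% of all genes tested, and an adjusted p-value under 0.05 by 0 of 10, against 0.0416%. With DESeq2 and with limma-voom these 3 counts were 0 as well. The groups overlapped for all 10 genes, while they were separate for 17.4% of all genes tested. The fitted log2 fold change of esculetin over vehicle was above 0 for 3 of the 10 genes and below 0 for 7. Its median was -0.18, against -0.0080 over all genes tested. Both the split and the median turned with single libraries. Without vehicle replicate 1 the difference was above 0 for 6 of the 10 genes with a median of 0.092, and without esculetin replicate 3 for 6 of 10 with a median of 0.026. Without vehicle replicate 3 the median was -0.36. At the replication available, the 95% interval of the fold change lay wholly within 1.5-fold in either direction for 3 genes, Acaca, Elovl6 and Thrsp. For the other 7 genes the interval reached beyond 1.5-fold, so a change of that size could not be told apart from none. In bulk liver, a lower level cannot be told apart from a smaller number of the cells that express a gene.

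**Figure D1:**
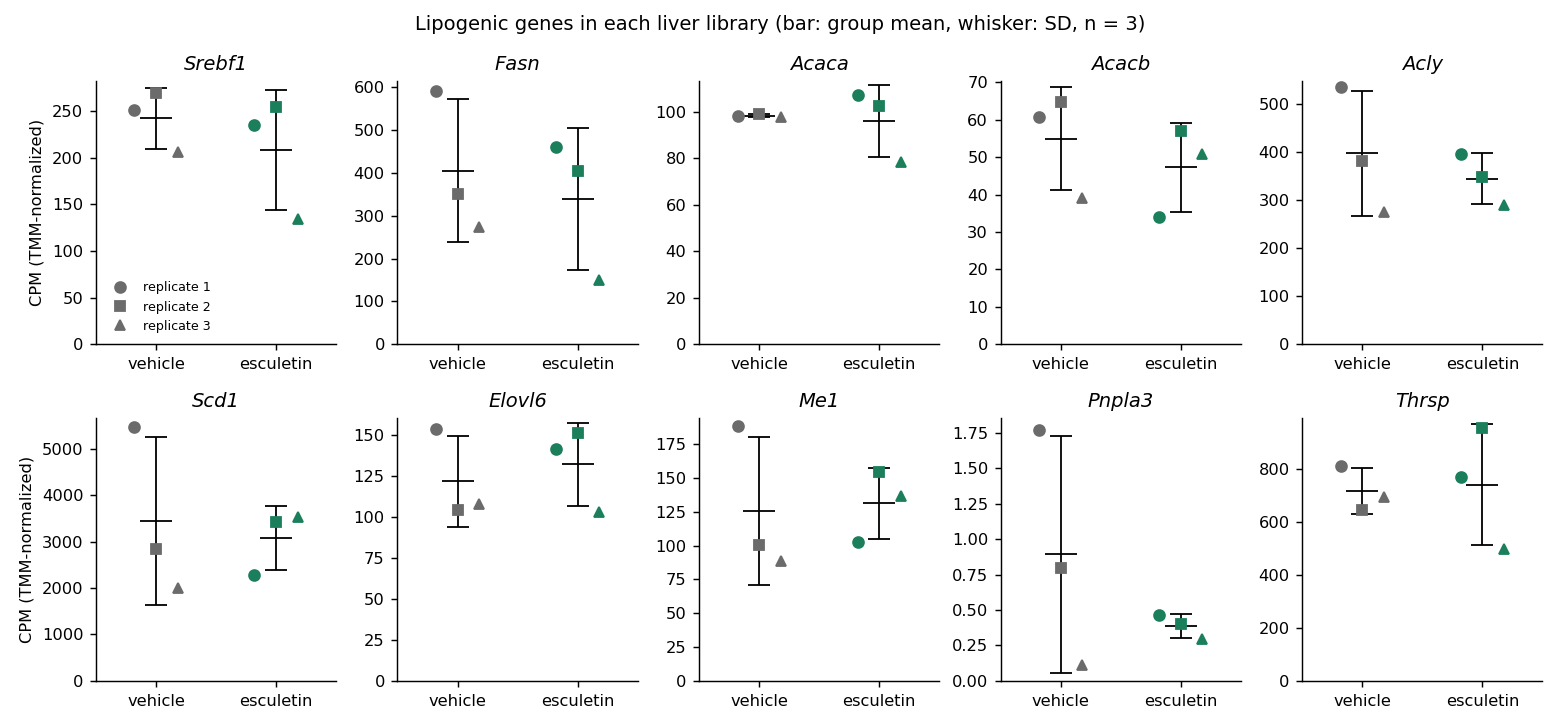
Expression (CPM, TMM-normalized counts scaled to a common library size, vertical axes starting at 0) of the 10 lipogenic genes in the 3 vehicle (grey) and 3 esculetin (green) libraries, 1 point per library, with marker shapes for replicates 1 to 3 and horizontal bars and whiskers for the group mean and SD. The points of the groups overlap in all 10 panels, and in all 10 the larger group SD exceeds the distance between the means.

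Srebf1 (ENSMUSG00000020538, chr11:60089913-60113407 of GRCm39, minus strand) encodes SREBP-1, the transcription factor that switches on the lipogenic enzymes. It had 252, 270 and 206 CPM in vehicle replicates 1 to 3, and 236, 255 and 135 CPM in esculetin replicates 1 to 3. CPM is the count scaled to a common library size by TMM. The lowest value by far was that of esculetin replicate 3, while the other 2 esculetin libraries lay within the range of the vehicle group. The means were 242 ± 33.0 and 208 ± 64.6 CPM (mean ± SD, n = 3 libraries each). The log2 fold change was -0.22 (standard error, SE, 0.21, 95% interval -0.68 to 0.24, adjusted p = 0.725, edgeR's quasi-likelihood test). Counts per gene do not separate the SREBP-1a and SREBP-1c transcripts, so the level of the liver's main isoform alone was not measured. Without esculetin replicate 3 the log2 fold change was 0.02.

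Acly (ENSMUSG00000020917, chr11:100367165-100440756, minus strand) encodes ATP citrate lyase, which splits citrate and so supplies cytosolic acetyl-CoA. It had 534, 382 and 276 CPM in the vehicle libraries and 396, 348 and 291 CPM in the esculetin libraries. The vehicle group was the wider one, and every esculetin library lay between its lowest and highest values. Esculetin over vehicle gave a log2 fold change of -0.21 (SE 0.21, adjusted p = 0.745), with a 95% interval of the fold from 0.630 to 1.19. Its direction rested on vehicle replicate 1, since the log2 fold change was 0.07 without it.

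Malonyl-CoA is made by acetyl-CoA carboxylases. Acaca (ENSMUSG00000020532, chr11:84020476-84292477, plus strand) encodes the cytosolic form ACC1, whose product feeds fatty acid synthesis. Acaca was the steadiest of the 10 genes, with 98.4, 99.1 and 97.6 CPM in the vehicle libraries and 107, 103 and 78.3 CPM in the esculetin libraries. The vehicle libraries were almost equal, and esculetin replicate 3 was below them while the other 2 were above. A log2 fold change of -0.03 was fitted (SE 0.11, adjusted p = 0.938), and the 95% interval of the fold ran from 0.821 to 1.16. Without esculetin replicate 3 the log2 fold change was 0.09.

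Acacb (ENSMUSG00000042010, chr5:114284307-114388822, plus strand) encodes ACC2, the form at the mitochondrial outer membrane whose malonyl-CoA restrains the entry of fatty acids into mitochondria. It had 60.8, 64.6 and 39.1 CPM with vehicle and 34.0, 56.9 and 50.8 CPM with esculetin. Its lowest library was esculetin replicate 1, in which Acaca had its highest value, so the genes of both carboxylases did not follow the same order of libraries. For Acacb the log2 fold change was -0.22 (SE 0.21, adjusted p = 0.736, 95% interval of the fold 0.621 to 1.19). It was -0.03 without esculetin replicate 1.

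Fasn (ENSMUSG00000025153, chr11:120696672-120715995, minus strand) encodes fatty acid synthase, which builds palmitate from malonyl-CoA and NADPH. It had 593, 351 and 274 CPM in the vehicle libraries and 461, 405 and 150 CPM in the esculetin libraries. The highest value of all was that of vehicle replicate 1 and the lowest that of esculetin replicate 3. The highest library exceeded the lowest 2.16-fold within the vehicle group and 3.07-fold within the esculetin group. The means were 406 ± 166 and 339 ± 166 CPM (mean ± SD, n = 3 each), so that their distance was smaller than either SD. At a log2 fold change of -0.26 (SE 0.38, adjusted p = 0.834), the 95% interval of the fold, 0.464 to 1.502, was the widest after that of Pnpla3. The log2 fold change was 0.12 without vehicle replicate 1 and 0.10 without esculetin replicate 3.

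Me1 (ENSMUSG00000032418, chr9:86462646-86578104, minus strand) encodes the cytosolic malic enzyme, a source of NADPH for fatty acid synthesis. It had 189, 100 and 88.3 CPM with vehicle and 103, 154 and 137 CPM with esculetin. Vehicle replicate 1 was the highest library and the other 2 vehicle libraries were the lowest, so the vehicle group enclosed the esculetin group. Me1 had a log2 fold change of 0.06 (SE 0.26, adjusted p = 0.952, 95% interval of the fold 0.701 to 1.55). Without vehicle replicate 1 it was 0.48, with an unadjusted p-value of 0.0140 in edgeR's test and a fold change under 1.5. It was -0.14 without vehicle replicate 3. The annotated exons of Me1 share 2146 bases with Rwdd2a on the opposite strand, and the library kit is not known to mark strand, so reads of that stretch cannot be told apart.

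Elovl6 (ENSMUSG00000041220, chr3:129326004-129432144, plus strand) encodes the elongase that lengthens palmitate to stearate. It had 154, 104 and 108 CPM with vehicle and 142, 151 and 103 CPM with esculetin. The ranges of the groups were nearly the same. Elovl6 had a log2 fold change of 0.12 (SE 0.17, adjusted p = 0.839), with a 95% interval of the fold from 0.830 to 1.42. The log2 fold change was 0.32 without vehicle replicate 1 and 0.01 without esculetin replicate 2.

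Scd1 (ENSMUSG00000037071, chr19:44382894-44399154, minus strand) encodes stearoyl-CoA desaturase, which turns stearate and palmitate into monounsaturated fatty acids. It had 5478, 2850 and 2007 CPM with vehicle and 2279, 3425 and 3533 CPM with esculetin. Between 0.197 and 0.558% of all counts of a library came from this 1 gene. Vehicle replicate 1 stood above all other libraries and vehicle replicate 3 below them, with the esculetin group between. The order within the esculetin group was the reverse of that of Fasn, with replicate 3 highest and replicate 1 lowest. The means were 3445 ± 1810 and 3079 ± 695 CPM (mean ± SD, n = 3 each), and the log2 fold change was -0.16 (SE 0.31, adjusted p = 0.882, 95% interval of the fold 0.551 to 1.45). It was 0.34 without vehicle replicate 1 and 0.02 without esculetin replicate 1. Reads shared with the close paralogs of Scd1 depend on settings of the counting that are not given in the sources used here.

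Pnpla3 (ENSMUSG00000041653, chr15:84051943-84073723, plus strand) encodes a lipid droplet protein of the patatin-like family and is a target of SREBP-1c. It was near the limit that the depth can show, with 52, 26 and 3 counts in the vehicle libraries and 15, 14 and 10 counts in the esculetin libraries. These counts correspond to 1.77, 0.798 and 0.109 CPM with vehicle and 0.466, 0.404 and 0.299 CPM with esculetin. Vehicle replicates 1 and 2 were above every esculetin library, while vehicle replicate 3 was below all of them, at the 3 counts taken here as the floor. The log2 fold change of -1.20 was the farthest from 0 among the 10 genes, with the largest SE, 0.72 (unadjusted p = 0.128, adjusted p = 0.557, edgeR). The 95% interval of the fold was 0.143 to 1.33. Without vehicle replicate 3 the log2 fold change was -1.71 (unadjusted p = 0.00686) and passed the thresholds, and without vehicle replicate 1 it was -0.25. When genes of low count were kept in the fit it was -1.18 (unadjusted p = 0.0219) and also passed. It did not pass with limma-voom, at -0.57 (unadjusted p = 0.515), or with the replicate number as a block, at -0.85 (unadjusted p = 0.211). Its exons share 105 bases with Gm49513 and 106 bases with Mir6392 on the same strand.

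Thrsp (ENSMUSG00000035686, chr7:97062139-97066937, minus strand) encodes Spot 14, a small protein that accompanies lipogenic enzymes and responds to thyroid hormone and carbohydrate. It had 812, 646 and 694 CPM with vehicle and 770, 955 and 499 CPM with esculetin. The highest and the lowest library were both in the esculetin group. Thrsp had a log2 fold change of 0.05 (SE 0.20, adjusted p = 0.952), and the 95% interval of the fold ran from 0.762 to 1.40. It was 0.27 without esculetin replicate 3 and -0.18 without esculetin replicate 2.

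**Figure D2:**
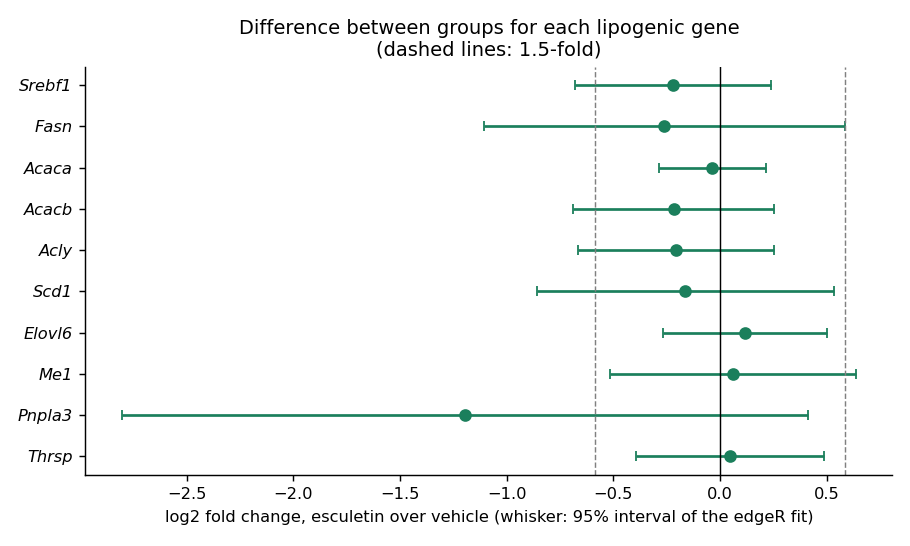
Log2 fold change of esculetin over vehicle for each lipogenic gene (point) with its 95% interval from the edgeR fit (whisker), a solid line at 0 and dashed lines at 1.5-fold. All 10 intervals include 0, and those of Acaca, Elovl6 and Thrsp stay between the dashed lines, while that of Pnpla3 runs from -2.80 to 0.41.

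The levels of the genes differed far more from each other than between the groups. Compared per kilobase of annotated exon, Scd1 stood first with 478 ± 251 CPM per kilobase in the vehicle group and 427 ± 96.5 in the esculetin group (mean ± SD of 3 libraries each). Thrsp followed with 326 ± 38.9 and 337 ± 104 CPM per kilobase, and the ranges of these neighbours overlapped in both groups. Next came the transcription factor, Srebf1, with 41.1 ± 5.59 and 35.4 ± 11.0, and Fasn with 34.7 ± 14.2 and 28.9 ± 14.2 CPM per kilobase, which overlapped as well. Mean levels with vehicle were 27.3 CPM per kilobase for Acly, 20.5 for Me1 and 14.4 for Elovl6. The 2 carboxylase genes were nearly equal, at 5.39 for Acacb and 5.35 for Acaca. Pnpla3 was last, at 0.168 CPM per kilobase with vehicle and 0.0732 with esculetin. The lengths are those of all annotated exons of a gene joined, 18396 bases for Acaca and 2197 for Thrsp, so genes with long alternative exons appear lower on this scale than their main transcript would.

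**Figure D3:**
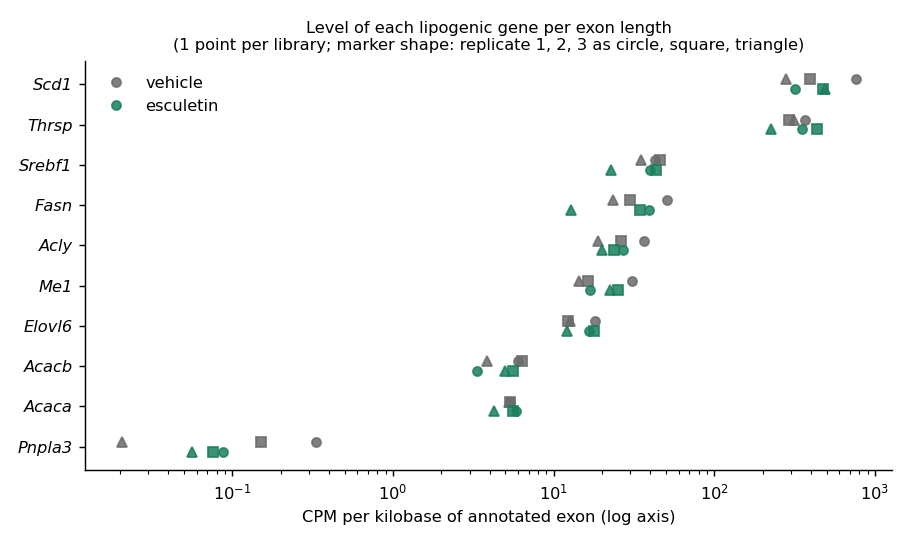
Level of each lipogenic gene in CPM per kilobase of annotated exon (log axis), 1 point per library, grey for vehicle and green for esculetin, with circles, squares and triangles for replicates 1, 2 and 3. Scd1 and Thrsp lie at 227 CPM per kilobase or more in all 6 libraries and Pnpla3 at 0.333 or less, and for each gene the grey and green points overlap.

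The spread between libraries of the same group was wide for the lipogenic genes. The pooled SD within groups, on the log2 scale, had a median of 0.39 over the 10 genes, against 0.19 over all genes tested, and it was above the median of all genes for 9 of the 10. It was 0.74 for Fasn, 0.58 for Scd1 and 1.25 for Pnpla3, values exceeded by fewer than 10% of the genes tested. Acaca was the exception, with 0.17, at the 46.9th percentile of all genes.

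Among the vehicle libraries, replicate 1 was the highest for 7 of the 10 genes and replicate 3 the lowest for 8. Vehicle replicate 1 was above the mean of the 6 libraries for 10 of 10 genes, with a median deviation of 0.43 on the log2 scale. Vehicle replicate 3 was above it for 1 of 10, with a median deviation of -0.33. In the esculetin group, replicate 3 was the lowest for 7 of the 10 genes, with a median deviation of -0.31, although Scd1, Me1 and Acacb were above their means in it. The median deviations of esculetin replicates 1 and 2 were 0.10 and 0.20, and the order of the esculetin libraries differed between genes. How often other genes follow these orders was not counted. Summed over the 10 genes, of which Scd1 gives the largest share, the vehicle libraries had 8172, 4866 and 3789 CPM and the esculetin libraries 4527, 5853 and 4977 CPM. The esculetin sums thus lay inside the range of the vehicle sums.

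**Figure D4:**
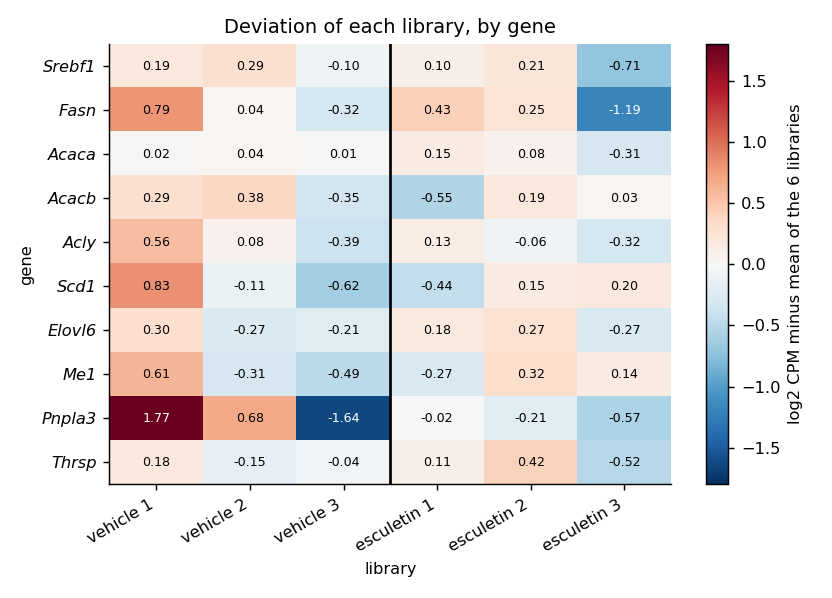
Deviation of each library from the mean of the 6 libraries in log2 CPM, for each lipogenic gene (rows) and library (columns, vehicle left of the line and esculetin right of it), with the value printed in each cell. The column of vehicle replicate 1 is positive for 10 of 10 genes, and that of esculetin replicate 3 holds the lowest value of Fasn, -1.19, and of Srebf1, -0.71.

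Facts of the libraries that touch these values are few. Total counts lay between 27957713 and 34920922, and each esculetin library was deeper than each vehicle library. The TMM factors, between 0.979 and 1.02, were close to 1. Hepatocyte markers (Alb, Ttr, Cps1 and Apoa1) summed to 77809 to 80682 CPM with vehicle and 73934 to 81120 CPM with esculetin, and none was at 0. Adipocytes also carry out lipogenesis, and of 6 adipocyte markers Adipoq, Plin1, Lep and Retn were at 0 in every vehicle library. Adipoq was detected in 2 esculetin libraries and Plin1 in 1, at no more than 0.144 CPM, and Lep and Retn were at 0 throughout. The summed level of the 6 adipocyte markers was 8.75 to 13.0 CPM with vehicle and 11.1 to 13.5 CPM with esculetin. Nearly all of this sum was Fabp4, with 10.8 ± 2.45 and 10.9 ± 1.27 CPM (mean ± SD, n = 3 each). It therefore says little of the other markers. Of Kupffer cell and macrophage markers the sum was 196 to 263 CPM with vehicle and 195 to 211 CPM with esculetin, with Clec4f as the largest term. All 5 of these markers had log2 fold changes below 0 and 0 passed the thresholds. The groups did not overlap for Cd68, at -0.37 (unadjusted p = 0.0225, adjusted p = 0.337, edgeR), and Csf1r, at -0.15 (unadjusted p = 0.0944, adjusted p = 0.504). Endothelial markers (70.1 to 90.4 against 69.9 to 79.6 CPM) and stellate cell markers (41.2 to 45.5 against 28.1 to 48.7 CPM) overlapped as well. Cholangiocyte markers were at 2.69 to 2.99 CPM with vehicle and 3.17 to 3.61 CPM with esculetin, without overlap. The sum of the lymphocyte markers, 13.3 to 14.8 and 11.3 to 12.4 CPM, also did not overlap, but it is nearly all Ptprc, a gene of leukocytes in general, with 13.4 ± 0.705 and 10.9 ± 0.521 CPM (mean ± SD, n = 3 each). Cd3e, at 0.189 and 0.211 CPM on average, had too few counts to be tested. Of single markers, the following passed the thresholds and were chosen after their values were seen. Cfd of the adipocyte list had 0.613, 0.246 and 0 CPM with vehicle and 1.12, 0.692 and 1.07 CPM with esculetin. Des of the stellate cell list had 1.87, 1.72 and 1.90 against 2.39, 3.43 and 3.02 CPM. The other markers of that list, Col1a1 and Lrat, had log2 fold changes of -0.37 and -0.10 (unadjusted p = 0.229 and 0.597, edgeR). Cd79a of the lymphocyte list had 0.272, 0.368 and 0.511 against 1.31, 0.692 and 0.508 CPM. The part of these differences in the levels of lipogenic genes was not tested.

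Other genes of the pathway were read from 10 lists, which hold 96 genes, 95 of them tested. Of these, 9 passed the thresholds of the study, against 3.13% of all genes tested, with 1 higher (1.37% of all genes) and 8 lower with esculetin (1.76%), and 0 had an adjusted p-value under 0.05. An unadjusted p-value under 0.05 was reached by 23 of the 95, against 11.9% of all genes tested, and the groups did not overlap for 24, against 17.4%. The lists were chosen with earlier results of these data known, and their differences from the lipogenic genes were not tested.

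The genes that control lipogenic transcription did not pass the thresholds. Of 15 genes, among them the SREBP escort and protease genes, the LXR receptors and the ChREBP gene Mlxipl, 0 passed, with a median log2 fold change of -0.06. The smallest p-value was that of Ppargc1b, a coactivator of SREBP-1, with 3.03, 2.55 and 2.77 CPM with vehicle and 3.02, 4.09 and 4.09 CPM with esculetin. Its difference was 0.43 on the log2 scale (unadjusted p = 0.0585, adjusted p = 0.440, edgeR). Of 9 genes of insulin signalling, which stimulates SREBP-1c, 1 passed and was lower, and the median was -0.13. This was Irs1, an adaptor of the insulin receptor, with 10.7, 11.1 and 8.28 CPM with vehicle and 5.29, 6.23 and 5.23 CPM with esculetin. All 3 esculetin libraries of Irs1 were below all vehicle libraries, at a log2 fold change of -0.84 (SE 0.16, unadjusted p = 0.000337, adjusted p = 0.132). Irs1 stayed past the thresholds under all 13 alternatives.

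Genes that supply carbon and NADPH to the route gave no call. Of 11 genes from glucokinase to citrate export 0 passed, with a median of 0.00 on the log2 scale. The smallest p-value was that of Mpc1, a subunit of the mitochondrial pyruvate carrier, with 16.3, 15.2 and 14.8 CPM with vehicle and 24.1, 18.4 and 20.2 CPM with esculetin. Mpc1 had a log2 fold change of 0.44, under 1.5-fold (unadjusted p = 0.00385, adjusted p = 0.207, edgeR). Of 7 genes of the pentose phosphate route and of other NADPH supply 0 passed, with a median of 0.08. The smallest p-value was that of Aldh1l1, a folate enzyme that forms NADPH, with a log2 fold change of 0.22 (unadjusted p = 0.0180, adjusted p = 0.311).

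Among 9 genes that act on acetyl-CoA carboxylase, 1 passed and was lower, and the median was -0.09. Prkab2 encodes a regulatory subunit of AMPK, the kinase that phosphorylates and inhibits both carboxylases, and had 4.53, 2.95 and 2.88 CPM with vehicle and 1.77, 2.05 and 2.27 CPM with esculetin. Prkab2 had a log2 fold change of -0.76 (SE 0.24, unadjusted p = 0.0105, adjusted p = 0.265, edgeR), and without vehicle replicate 1 it was -0.52 and no longer past the thresholds. Among 11 other genes of desaturation and elongation, 1 passed and was lower, with a median of -0.06. Elovl3, an elongase of saturated and monounsaturated fatty acids, had 77.6, 81.7 and 60.9 CPM with vehicle and 38.5, 59.8 and 37.5 CPM with esculetin, so that the highest esculetin library lay just below the lowest vehicle library. Its log2 fold change was -0.70 (SE 0.18, unadjusted p = 0.00308, adjusted p = 0.203), and -0.58, just under 1.5-fold, without esculetin replicate 3. Of 12 genes tested of acyl-CoA and triglyceride synthesis 0 passed, with a median of 0.08. Mogat1 was not tested for its low counts. Lpin2, a phosphatidate phosphatase of the lipin family, had the smallest p-value, with a log2 fold change of 0.51 (unadjusted p = 0.00178, adjusted p = 0.170), and passed without esculetin replicate 1, at 0.60.

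Lipogenic genes share their activators with other targets. Of 6 further LXR targets 0 passed, with a median of 0.15 on the log2 scale. The smallest p-value was that of Abcg8, a subunit of the sterol exporter of the canalicular membrane, with a log2 fold change of 0.34 (unadjusted p = 0.0282, adjusted p = 0.358, edgeR), which was 0.19 without vehicle replicate 1. Of 5 further ChREBP targets 1 was higher and 1 lower, with a median of 0.11. G6pc1, which encodes the catalytic subunit of glucose-6-phosphatase, had 923, 599 and 478 CPM with vehicle and 256, 437 and 362 CPM with esculetin, without overlap. For G6pc1 the log2 fold change was -0.92 (SE 0.24, unadjusted p = 0.00357, adjusted p = 0.204), and it passed under all 13 alternatives. Txnip, a thioredoxin-binding protein induced by glucose, had 36.2, 34.9 and 43.6 CPM with vehicle and 44.9, 48.2 and 104 CPM with esculetin. Its log2 fold change of 0.78 (SE 0.28, unadjusted p = 0.0184, adjusted p = 0.313) rested on esculetin replicate 3, without which it was 0.29 and under 1.5-fold. It also missed the thresholds without vehicle replicate 2 (unadjusted p = 0.0627) and with DESeq2 (unadjusted p = 0.0545).

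The targets of SREBP2, the sterol-regulated relative of SREBP-1, were the list with the most calls, 4 of 10, all lower with esculetin, where 1.76% of all genes tested passed as lower. The log2 fold change was below 0 for 10 of 10 genes, with a median of -0.37, against -0.0080 for all genes tested. The median lay between -0.50 and -0.27 when each library was left out in turn. Hmgcs1, which makes HMG-CoA, had 258, 247 and 148 CPM with vehicle and 136, 138 and 125 CPM with esculetin. Its log2 fold change was -0.71 (SE 0.18, unadjusted p = 0.00257, adjusted p = 0.196, edgeR). Sqle, the squalene epoxidase gene, had 81.1, 81.9 and 75.2 CPM with vehicle and 58.6, 55.1 and 40.3 CPM with esculetin, a log2 fold change of -0.63 (unadjusted p = 0.000632, adjusted p = 0.136). In both genes every esculetin library was below every vehicle library. Idi1, which isomerizes isopentenyl diphosphate, had 103, 106 and 75.3 against 73.4, 56.3 and 41.9 CPM, a log2 fold change of -0.73 (unadjusted p = 0.00361, adjusted p = 0.205). Mvd, mevalonate diphosphate decarboxylase, had 12.4, 12.8 and 6.05 against 7.00, 7.47 and 4.42 CPM, a log2 fold change of -0.73 (unadjusted p = 0.0291, adjusted p = 0.361), with groups that overlapped because of vehicle replicate 3. Hmgcs1 missed the 1.5-fold threshold without vehicle replicate 1 (-0.57), and Sqle (-0.48) and Idi1 (-0.55) missed it without esculetin replicate 3. Mvd did not pass without vehicle replicate 1 (-0.59), where its fold change was over 1.5 but its unadjusted p-value was 0.0949 in edgeR's test. It also missed both thresholds without vehicle replicate 2 (-0.55, unadjusted p = 0.122) and without esculetin replicate 3 (-0.53, unadjusted p = 0.0994).

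**Figure D5:**
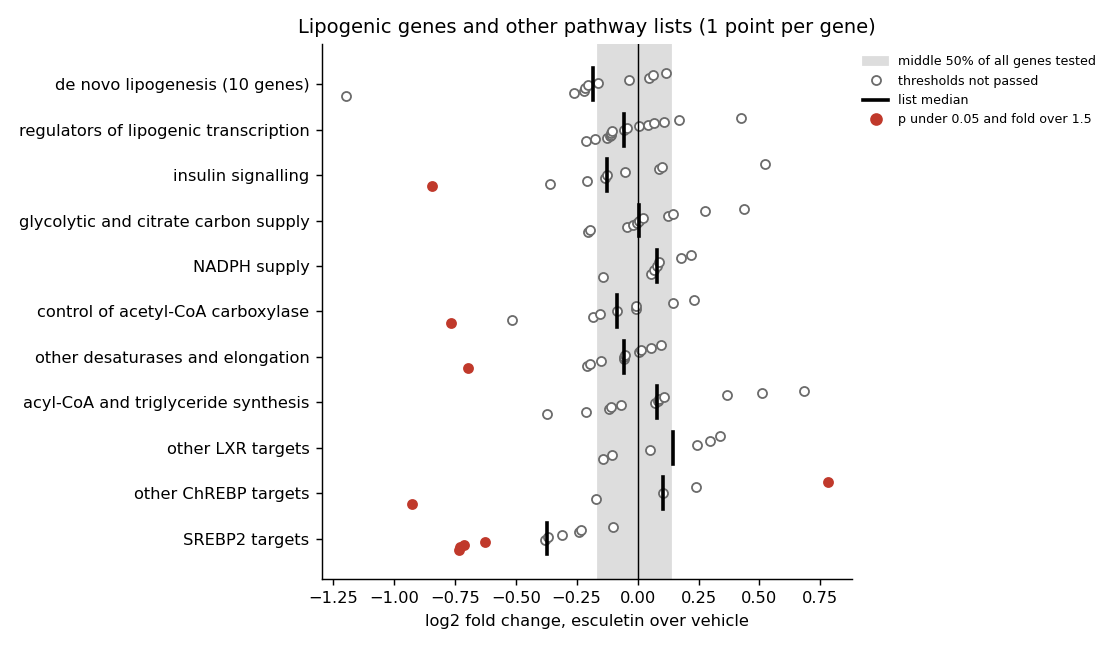
Log2 fold change of esculetin over vehicle for the 10 lipogenic genes and for the genes of 10 other pathway lists, 1 point per gene, with red points past the thresholds (fold change over 1.5 with an unadjusted p-value under 0.05), open points not past them, black bars at list medians and a grey band for the middle 50% of all single genes tested, which is no range for a median. No lipogenic gene is red, and the SREBP2 targets hold 4 red points and a median of -0.37. The lists were chosen with earlier results of these data known.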

How the data were processed

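Liver RNA was sequenced as 150-bp paired-end reads, which the authors aligned to GRCm39 with HISAT 2.2.1 and counted with featureCounts. The deposited values are raw gene counts, not normalized. The annotation release, strand setting and treatment of multiply mapped reads are not given in the sources used here. Of 55357 identifiers, 54749 matched GENCODE vM39, and the symbol Tf had no match.

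Counts were filtered with filterByExpr, scaled by TMM and tested with edgeR 4.0.16 (glmQLFTest, R 4.3.3), with Benjamini-Hochberg adjustment over 14433 genes. Log2 CPM used a prior count of 2. Depth was 27957713 to 34920922 counts, at which 3 counts are 0.0864 to 0.109 CPM, and the common biological coefficient of variation was 14.6%. The fit was tested on simulated data. No library was a copy of another of its group (chi-square per gene of 26.2 or more).

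The genes and lists were chosen with earlier results of these data known. All 10 lipogenic genes are named, and of each other list the genes past the thresholds or, where none passed, the gene with the smallest p-value. Alternatives were DESeq2 1.42.0 or limma-voom (limma 3.58.1, the tool of the study) as the test, scaling by total counts or by the size factors of DESeq2, omission of the low-count filter or a minimum of 10 counts throughout, omission of single libraries, a block for the replicate number, and calls without the fold-change threshold.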

Additional observations from a re-analysis of the deposited data

How the results depend on the processing

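The number of lipogenic genes past the thresholds was 0 and stayed 0 with DESeq2, limma-voom, other scalings, at least 10 counts in every library (9 genes tested, without Pnpla3) and no fold-change threshold. It was 1 without the filter on low counts, and 0 to 1 when each library was left out in turn, in both cases through Pnpla3. The number with an adjusted p-value under 0.05 was 0 under each alternative. Of the other pathway genes 9 passed, 8 to 10 with alternatives on all libraries, 23 without a fold-change threshold, and 4 (without esculetin replicate 3) to 12 (without vehicle replicate 3) when 1 library was left out. Of 69 log2 fold changes of lipogenic genes under alternatives on all libraries, 0 changed direction, but several changed in size. They ran from -0.19 to -0.048 for Scd1, -1.23 to -0.57 for Pnpla3, 0.036 to 0.13 for Me1 and 0.0035 to 0.060 for Thrsp, and stayed between -0.34 and 0.13 for the other 6 genes. Of 60 with 1 library left out, 12 did. The ranges were -0.39 to 0.019 for Srebf1, -0.55 to 0.12 for Fasn, -0.12 to 0.095 for Acaca, -0.41 to 0.068 for Acly, -0.43 to 0.34 for Scd1, -0.14 to 0.48 for Me1 and -0.18 to 0.27 for Thrsp. They were -0.41 to -0.03 for Acacb, 0.01 to 0.32 for Elovl6 and -1.71 to -0.25 for Pnpla3. Without vehicle replicate 3, Acly had an unadjusted p-value of 0.0327 in edgeR's test, with a fold change under 1.5. The cause of these shifts was not tested. The percent of called genes that were higher was 43.81, and 38.88 with total counts. With the replicate block 0 lipogenic genes and 10 other pathway genes passed, and 399 genes of all. Same-numbered libraries deviated from their group means with correlations of -0.0689, -0.0108 and 0.00274 over all genes tested. These values do not show whether the replicate numbers pair the libraries for the lipogenic genes. With the block, the unadjusted p-value in edgeR's test was 0.0955 for Fasn and 0.0608 for Srebf1, against 0.507 and 0.314 without it. It was 0.892 for Scd1 and 0.211 for Pnpla3, against 0.615 and 0.128. Over all genes, 452 passed, and 776 without the filter. Of all genes, 6 had an adjusted p-value under 0.05, against 193 with DESeq2, 477 without the filter and 15 with the block. When each library was left out in turn this number was 2 to 45.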

Other observations

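Further genes of the lists, chosen after their values were seen, are given as values. Lpin1, a phosphatidate phosphatase and coactivator induced on fasting, had 143, 163 and 435 CPM in vehicle replicates 1 to 3 and 350, 402 and 437 CPM in esculetin replicates 1 to 3. Its value in vehicle replicate 3 lay among those of the esculetin libraries. In vehicle replicate 3, 8 of the 10 lipogenic genes were lowest within their group. In esculetin replicates 1 and 2, however, the lipogenic genes had median deviations of 0.10 and 0.20 on the log2 scale. A link between Lpin1 and the lipogenic genes was not tested. The log2 fold change of Lpin1 was 0.68 (standard error 0.35, unadjusted p = 0.0809, edgeR's quasi-likelihood test). Foxo1, a transcription factor that insulin signalling restrains, had 46.9, 41.3 and 56.3 CPM with vehicle and 71.7, 68.0 and 68.0 CPM with esculetin. Its groups did not overlap, and its log2 fold change of 0.52 was under 1.5-fold (standard error 0.11, unadjusted p = 0.000733, adjusted p = 0.136). Mid1ip1, a partner of acetyl-CoA carboxylase related to Thrsp, had 69.4, 48.5 and 27.2 CPM with vehicle and 35.2, 40.0 and 26.4 CPM with esculetin. Insig1, which retains SREBP proteins in the endoplasmic reticulum and is itself a target of theirs, had 575, 433 and 294 CPM with vehicle and 385, 443 and 296 CPM with esculetin. In Mid1ip1 and Insig1, as in Acly and Scd1, vehicle replicate 1 was the highest library and vehicle replicate 3 the lowest of its group. Neither passed the thresholds, with log2 fold changes of -0.51 and -0.21 (adjusted p = 0.505 and 0.753).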
